A study of Mus musculus with 6 samples.

Results

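The genes followed here encode the enzymes that add and remove acetyl and methyl groups on histones and methyl groups on DNA. They were chosen by symbol alone: histone deacetylases (Hdac) and sirtuins (Sirt), lysine acetyltransferases (Kat), lysine methyltransferases of the Kmt2 and Kmt5 families, lysine demethylases (Kdm), DNA methyltransferases (Dnmt) and the Tet dioxygenases. This gave 58 of the 18193 genes that have a probeset annotated to them alone, read by 144 probesets. Hippocampal messenger RNA came from 3 Tg and 3 wt mice, read with 1 Affymetrix Mouse Genome array per mouse. Glud1 encodes glutamate dehydrogenase, and in the Tg mice it is over-expressed under the neuron-specific enolase (Nse) promoter, which drives it in neurons and not in glia. The controls carry no transgene, and both groups were untreated males of the C57BL/6 background, 9 months old. The comparison asks which transcripts differ in tissue that lives with a chronic excess of glutamate.

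Acetyl groups on histone tails go with open chromatin. Acetyltransferases place them, while zinc-dependent deacetylases and NAD-dependent sirtuins take them off. Methyl groups on histone lysines mark active or silent genes according to the lysine, and separate families of methyltransferases and demethylases write and erase each mark. DNA methyltransferases put methyl groups on the cytosine of CpG dinucleotides, and Tet enzymes oxidise them. In the hippocampus, several of these enzymes are known from work on memory and on gene expression that follows neuronal activity.

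The promoters of these genes were often rich in CpG, the dinucleotide on which the Dnmt and Tet members act. RefSeq promoters of the GRCm38.p6 build, which run from 250 bases before to 50 after a transcript start, were matched for 47 of the 58 genes (72 promoters). A promoter held from 0 to 65 CpG, with a median of 19.5 against 13 over all protein-coding genes. With a GC content of at least 50% and an observed to expected CpG ratio of at least 0.6, 50 of the 72 (69.4%) were CpG-rich, against 45.1% of the promoters of protein-coding genes and 33.5% of all promoters. The letters TATAAA, searched on both strands, were present in 3 of the 72 (4.17%) against 12.6% of the promoters of protein-coding genes and 13.6% of all promoters. GGGCGG was found in 47 (65.3%) against 46.2% and 35.7%. The letters CCAAT occurred in 38.9% against 38.2% and 37.4%, and TGACGTCA in none of the 72 against 2.23% and 1.79%. Of these, 3 promoters are printed to show this range, with CpG in capitals, all on the minus strand and 5′ to 3′. The Kdm7a promoter (chr6:39206724-39207023) has 65 CpG, the most of the 72, a Sirt3 promoter (chr7:140882260-140882559) has 23, and an Hdac9 promoter (chr12:34917046-34917345) has none.
Kdm7a: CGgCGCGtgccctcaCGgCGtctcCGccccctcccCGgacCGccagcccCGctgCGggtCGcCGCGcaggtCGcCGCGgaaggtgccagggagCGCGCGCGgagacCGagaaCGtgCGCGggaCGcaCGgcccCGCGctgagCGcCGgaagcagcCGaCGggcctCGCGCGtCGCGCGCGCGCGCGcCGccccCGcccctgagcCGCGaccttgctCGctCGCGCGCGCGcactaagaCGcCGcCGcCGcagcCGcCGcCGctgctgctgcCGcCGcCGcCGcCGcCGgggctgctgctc
Sirt3: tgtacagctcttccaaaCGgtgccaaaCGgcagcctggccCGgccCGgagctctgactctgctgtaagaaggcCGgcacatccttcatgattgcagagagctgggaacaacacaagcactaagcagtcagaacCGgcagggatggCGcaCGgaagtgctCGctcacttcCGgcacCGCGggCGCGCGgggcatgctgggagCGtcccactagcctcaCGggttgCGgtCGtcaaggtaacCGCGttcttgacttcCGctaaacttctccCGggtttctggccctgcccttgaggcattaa
Hdac9: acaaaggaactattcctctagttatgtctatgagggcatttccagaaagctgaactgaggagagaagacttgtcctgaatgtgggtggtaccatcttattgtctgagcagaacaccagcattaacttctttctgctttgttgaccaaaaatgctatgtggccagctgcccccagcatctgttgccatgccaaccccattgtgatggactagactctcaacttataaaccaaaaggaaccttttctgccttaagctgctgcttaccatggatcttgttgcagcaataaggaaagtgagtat
These matches describe letters in a window, and no array value was measured at a promoter.

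The values are MAS5 signals, brightness on a linear scale, and tests were run on log2(signal + 16), which understates differences of dim probesets. All differences are Tg minus wt. Over the kept probesets, the median signal lay between 309.6 and 319 on the Tg and between 297 and 305 on the wt arrays, and the 3' to 5' ratio of Actb, a sign of RNA integrity, between 1.64 and 1.69 and between 1.70 and 1.95. The 18S ribosomal RNA control ranged from 976 to 3313 on the Tg arrays and from 2286 to 13960.1 on the wt arrays, with wt 1 and wt 2 the highest. Glud1 itself read 5116 to 5596 on the Tg and 5647 to 6383 on the wt arrays, lower on the arrays labelled Tg. Whether its probeset reads the transgene's messenger RNA is not given in the sources used here, so every direction below rests on the labels.

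No histone or DNA modifying enzyme differed between Tg and wt hippocampus past the test's threshold. The log2 differences reached at most 0.49 at the brightest probesets, and ran from -1.13 to 1.32 at the further kept ones. At the brightest probeset of each gene, 57 of the 58 genes passed the filter on low signals, and only Dnmt3l, which encodes a cofactor of the DNA methyltransferases without catalytic activity, did not (signals of 53.6, 25.9 and 17.2 on the Tg and 9.60, 49.6 and 42.9 on the wt arrays). limma called 0 of the 57 at an adjusted p under 0.05, as it did for 0% of all 31076 kept probesets, and the smallest adjusted p was 0.496, for Kdm7a. Cyber-T called 0 of the 57, where it called 0.209% of all kept probesets. At an unadjusted p under 0.05 limma listed 2 of the 57, Kdm7a as higher and Sirt3 as lower, against 7.87% of all 13854 genes at their brightest probeset (2.9% higher and 4.97% lower). The share among the enzymes was not above that of all genes. In bulk tissue, fewer cells of a type and less RNA per cell cannot be told apart.

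At the brightest probesets the log2 fold changes ran from -0.37 for Kdm4c to 0.49 for Kmt5c. Of the 57, 29 were positive (50.9%, median 0.0098), against 44.1% of all genes (median -0.031). After quantile normalization 26 of the 57 were positive (median -0.027), and 20 were when array medians were set equal (centred arrays, median -0.0565), against 40.9% and 32.0% of all genes, so the sign of this median depends on the scaling. Every Tg array was above every wt array for 2 genes, Kdm6a and Sirt7, where this held for 5.2% of all genes. Every Tg array was below every wt array for 4, Sirt3, Sirt5, Kdm4c and Tet1, against 8.81% of all genes. A p that misses the threshold does not show equal levels, so the 95% intervals matter. For 24 of the 57 genes the whole interval lay within a 1.3-fold difference either way (0.38 on the log2 scale), and for the rest it reached past that size. Over all genes the interval lay within that size for 3790 of 13854. Intervals are wider at dim probesets, so these counts are not read as a result about the enzymes.

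**Figure D1:**
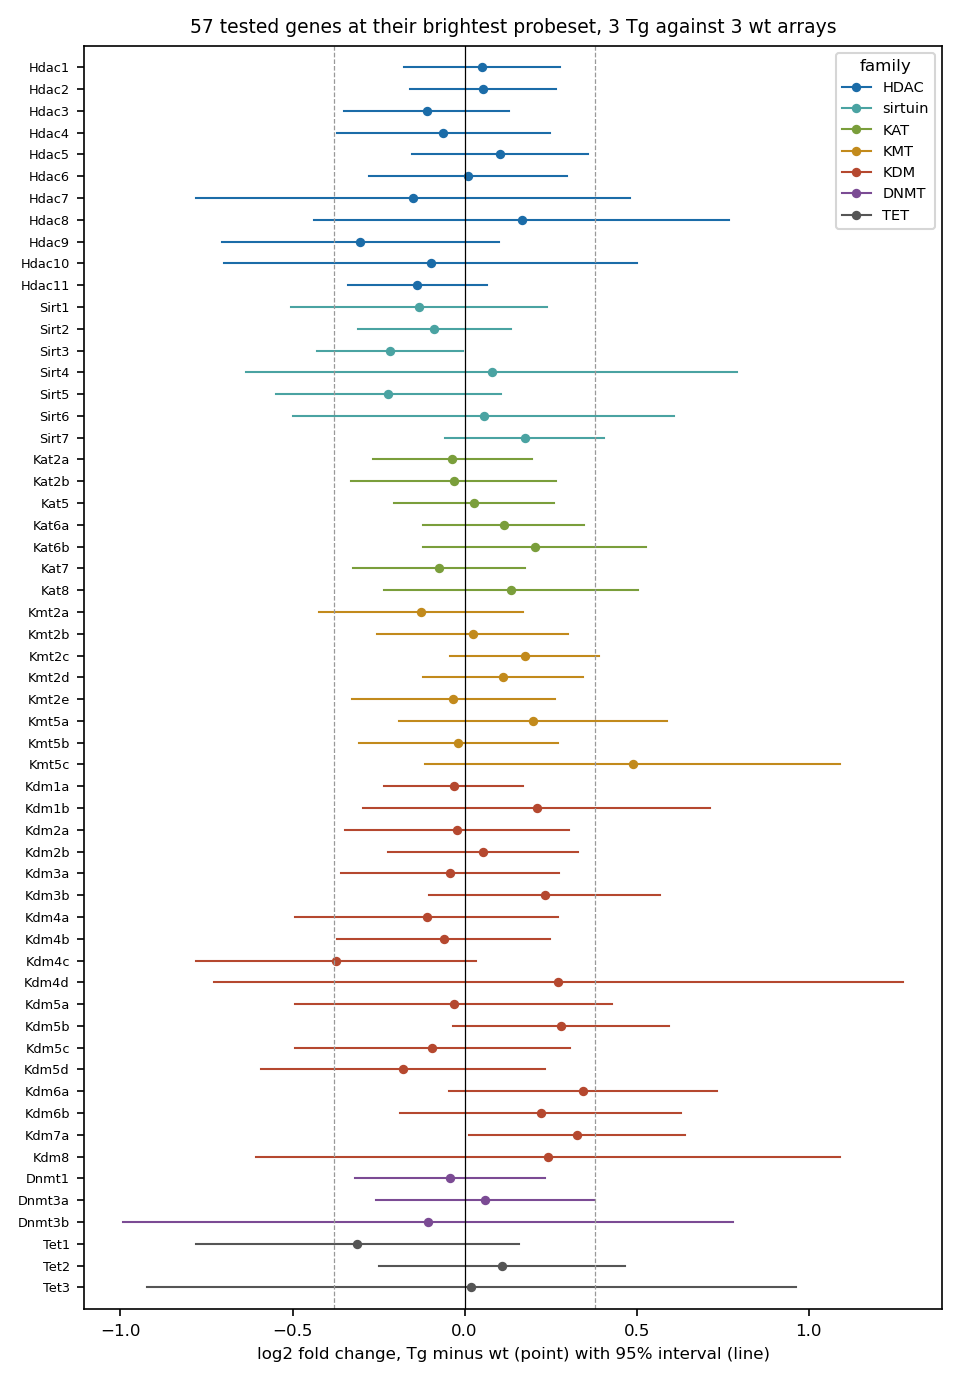
Log2 fold change (Tg minus wt, horizontal axis) of each of the 57 tested genes at its brightest probeset, coloured by enzyme family, with the 95% interval of limma as a line. Dashed lines mark a 1.3-fold difference. The points lie between -0.37 and 0.49, and only the intervals of Kdm7a and Sirt3 leave out 0.

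Among the histone deacetylases, 5 of 11 genes were positive, with a median log2 fold change of -0.062. The median was -0.086 under quantile normalization and -0.13 under centring of each array. Over all genes the median was negative in these settings as well (-0.031, -0.047 and -0.097). For 7 of the 11 the interval lay within a 1.3-fold difference. Hdac2, a class I deacetylase of nuclear corepressor complexes, had signals of 2470, 2053 and 2222 on the Tg and 2145, 2139.9 and 2196 on the wt arrays. The wt values fell inside the range of the Tg values, and the log2 fold change was 0.053 (95% interval -0.16 to 0.26, limma adjusted p = 0.888). Hdac11, the single class IV deacetylase, had signals of 2255, 2056 and 2104 on the Tg and 2382, 2471 and 2208 on the wt arrays. Of these, Tg 1 reached above wt 3 and the other Tg arrays lay below all wt arrays, with a log2 fold change of -0.14 (-0.34 to 0.065, adjusted p = 0.663). The other class I genes had log2 fold changes of 0.051 for Hdac1, -0.11 for Hdac3 and 0.17 for Hdac8. Class IIa deacetylases, which shuttle between nucleus and cytoplasm with neuronal activity, had 1 of 4 positive. Hdac5 stood at 0.10, Hdac4 at -0.062, Hdac7 at -0.15 and Hdac9 at -0.30, the lowest of the family, with an interval of -0.71 to 0.10. Hdac6, the tubulin deacetylase of class IIb, and Hdac10 had 0.0098 and -0.098.

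Of the sirtuins, the lowest log2 fold changes were those of Sirt3 and Sirt5, which work in mitochondria. Sirt3, the main protein deacetylase of the mitochondrial matrix, had signals of 1683, 1563 and 1702 on the Tg and 1988, 1986 and 1786 on the wt arrays. Every Tg array lay below every wt array. The means were 1649.6 ± 75.2 for Tg and 1919.8 ± 116 for wt (SD, n = 3), a log2 fold change of -0.22 (1.16-fold lower, 95% interval -0.43 to -0.0039, limma adjusted p = 0.507). With wt 1 and wt 2 both left out it was -0.11, and with either one left out -0.19. Sirt5, which removes succinyl and malonyl groups from mitochondrial enzymes, had signals of 412, 427 and 415 on the Tg and 462, 549 and 463 on the wt arrays, again without overlap, with a log2 fold change of -0.22 (-0.55 to 0.10, adjusted p = 0.663). At the other kept Sirt5 probeset the groups overlapped (332, 327 and 408 on the Tg and 356, 344 and 367 on the wt arrays), with a log2 fold change of -0.0059. Sirt4, the mitochondrial sirtuin known as an inhibitor of glutamate dehydrogenase, the product of Glud1, had signals of 214, 176 and 106 on the Tg and 186, 186 and 96.7 on the wt arrays. Those ranges overlapped, and its log2 fold change of 0.079 had a wide interval (-0.63 to 0.79), which leaves room for a difference past 1.3-fold in either direction.

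Sirt2, a cytosolic tubulin deacetylase abundant in oligodendrocytes, had signals of 2369.5, 2399.7 and 2273 on the Tg and 2795, 2513 and 2213 on the wt arrays. The Tg values sat within the wt range, at a log2 fold change of -0.088 (-0.31 to 0.13, adjusted p = 0.813). It was -0.0071 without wt 1, -0.17 without wt 3 and 0.084 with both wt 1 and wt 2 left out. The nuclear sirtuins differed in sign. Sirt7, a deacetylase of the nucleolus, had signals of 1295, 1183 and 1234 on the Tg and 1080.1, 1151 and 1050.4 on the wt arrays, without overlap and with a log2 fold change of 0.18 (adjusted p = 0.628). Sirt1 had -0.13 and Sirt6 0.055, with overlapping arrays. In all, 3 of 7 sirtuins were positive, with a median of -0.088. The median was -0.063 under quantile normalization and -0.15 with centred arrays, with 1 and 2 of 7 positive. The median of all genes was also negative in these settings, at -0.031, -0.047 and -0.097.

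At their brightest probesets, 5 of 7 acetyltransferases had an interval within a 1.3-fold difference. Those of Kat6b and Kat8 reached past it, up to 0.53 and 0.51. Kat6a, a MYST acetyltransferase also known as MOZ, had signals of 1400, 1568 and 1662 on the Tg and 1443, 1326 and 1503 on the wt arrays. Its groups overlapped, with a log2 fold change of 0.11 (-0.12 to 0.35, adjusted p = 0.764). Kat7, the MYST enzyme that acetylates histones at replication origins, had signals of 1259, 1540 and 1462 on the Tg and 1354, 1569.9 and 1558 on the wt arrays. Tg 1 was the lowest array and the others mixed, at -0.074 (-0.32 to 0.18, adjusted p = 0.867). The remaining MYST genes Kat5, Kat6b and Kat8 had 0.027, 0.20 and 0.14, and Kat2a and Kat2b, the GNAT acetyltransferases of the SAGA and related coactivator complexes, -0.035 and -0.032. Further kept probesets gave -0.22 for Kat5, 0.37 and -0.32 for Kat7, -0.033 and -0.25 for Kat2a, and 0.43 and 0.66 for Kat2b. The family's median was 0.027 with 4 of 7 positive as deposited and 0.034 after quantile normalization, but -0.039 with 3 of 7 positive when each array was centred on its median.

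Of the methyltransferases, 5 of 8 were positive, with a median log2 fold change of 0.067 (0.064 after quantile normalization, 0.00082 with centred arrays). Kmt2c, which writes methyl groups on lysine 4 of histone H3 at enhancers, had signals of 2505, 2193 and 2247 on the Tg and 1912, 2225 and 2013 on the wt arrays. Of the wt arrays only wt 2 reached the Tg range, with a log2 fold change of 0.17 (-0.042 to 0.39, adjusted p = 0.606). Kmt2e, a relative of this family that is not known as an active methyltransferase, had signals of 1959.5, 2028 and 2715 on the Tg and 1955, 2457 and 2406 on the wt arrays. Tg 3 was the highest array and wt 1 the lowest, and the log2 fold change was -0.033 (-0.33 to 0.26, adjusted p = 0.954). The other enzymes that act on lysine 4 had -0.13 (Kmt2a), 0.023 (Kmt2b) and 0.11 (Kmt2d). Among the enzymes that methylate lysine 20 of histone H4, Kmt5a had 0.20 and Kmt5b -0.018. Kmt5c, which adds the last methyl groups there in heterochromatin, had the highest log2 fold change of all 57 genes, 0.49, from signals of 287, 381 and 237 on the Tg and 191, 313 and 146 on the wt arrays. Its wt 2 array lay above Tg 1 and Tg 3, the interval ran from -0.11 to 1.09, and the adjusted p was 0.604.

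Among the demethylases, 9 of 18 genes were positive, with a median log2 fold change of 0.016 (0.012 after quantile normalization, but -0.051 with each array centred on its median). Kdm7a, a demethylase with a PHD finger that acts on repressive marks of histone H3, had signals of 1454, 1098 and 1576 on the Tg and 1109.6, 962 and 1185 on the wt arrays. Tg 1 and Tg 3 were above all wt arrays and Tg 2 was below wt 1 and wt 3. The means were 1376 ± 248 for Tg and 1086 ± 114 for wt (SD, n = 3), a log2 fold change of 0.33 (1.25-fold higher, 95% interval 0.013 to 0.64, limma adjusted p = 0.496), and it was 0.48 without Tg 2 and 0.22 without Tg 3.

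The demethylases of lysine 27 of histone H3, Kdm6a and Kdm6b, were both positive at their brightest probeset. Kdm6a had signals of 695, 656 and 740.2 on the Tg and 616, 402 and 652 on the wt arrays. Each Tg array lay above each wt array, and wt 2 was far below the other wt arrays, with a log2 fold change of 0.34 (-0.044 to 0.73, adjusted p = 0.568), against 0.05 and 0.36 at its further kept probesets. Kdm6b, known as a gene induced by neuronal activity, had signals of 663, 910.5 and 824 on the Tg and 796, 498 and 784 on the wt arrays, with wt 2 again the lowest array and a log2 fold change of 0.22 (-0.19 to 0.63, adjusted p = 0.735). Of its further kept probesets, one had signals of 212, 222 and 267 on the Tg and 389, 206 and 309 on the wt arrays and a log2 fold change of -0.31, and the other, with 122, 170.1 and 173 on the Tg and 92.9, 88.7 and 146 on the wt arrays, stood at 0.46, so the probesets of Kdm6b went both ways. A probeset annotated to Kdm6b together with another gene, and for that reason no member here, read 782, 865 and 834 on the Tg and 682, 471 and 523 on the wt arrays. Its groups did not overlap and its log2 fold change was 0.57 (adjusted p = 0.251), and the study lists it among its altered probesets, which were chosen on these same arrays.

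Kdm5a, Kdm5b, Kdm5c and Kdm5d erase methyl groups from lysine 4 of histone H3, and 1 of the 4 was positive at its brightest probeset (median -0.063). Kdm5b had signals of 1443, 1345 and 1640.5 on the Tg and 1466, 984 and 1225 on the wt arrays. Tg 3 was the highest and wt 2 the lowest, with wt 1 inside the Tg range, and the log2 fold change was 0.28 (-0.035 to 0.59, adjusted p = 0.567). It was 0.13 without wt 2 and 0.42 without wt 1, and the other kept Kdm5b probeset gave -0.32. Kdm5a had signals of 512, 602 and 494 on the Tg and 419, 487 and 798 on the wt arrays. Its wt 3 array was above all others and the other wt arrays were the lowest, which gave a log2 fold change of -0.032 (-0.49 to 0.43, adjusted p = 0.972) with wt 3 and 0.23 without it. Kdm5c, whose human counterpart is a gene of intellectual disability, had signals of 429.9, 335 and 390.5 on the Tg and 506, 386 and 353 on the wt arrays, which overlapped, with a log2 fold change of -0.094 (-0.49 to 0.31, adjusted p = 0.896). Kdm5d, its homologue on the Y chromosome, had -0.18 at its brightest probeset. The other kept Kdm5d probeset went the other way, at 0.75 (-0.051 to 1.54, adjusted p = 0.544).

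Kdm1a, the flavin-dependent demethylase LSD1, had signals of 2186, 2072 and 2197 on the Tg and 2351, 2174 and 2081 on the wt arrays. The groups overlapped, with a log2 fold change of -0.032 (-0.23 to 0.17, adjusted p = 0.933), and Kdm1b had 0.21. Members of the Kdm4 group act on lysine 9 of histone H3 and some also on lysine 36, and 1 of 4 genes was positive (median -0.085). Kdm4c had the lowest log2 fold change of all 57 genes, -0.37 (-0.78 to 0.033, adjusted p = 0.552), from signals of 376, 348 and 409 on the Tg and 650, 429 and 429 on the wt arrays. The groups did not overlap, and wt 1 stood above the other wt arrays, which were close to the Tg range. Kdm4a, Kdm4b and the dim Kdm4d had -0.11, -0.061 and 0.27. For the lysine 36 demethylases Kdm2a and Kdm2b the values were -0.023 and 0.054, for the lysine 9 demethylases Kdm3a and Kdm3b -0.042 and 0.23, and for Kdm8 0.24 with an interval of -0.61 to 1.09. The other kept Kdm3b probeset gave 0.57 (adjusted p = 0.618).

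Enzymes of DNA methylation gave 1 of 3 tested Dnmt genes positive, with a median log2 fold change of -0.042. Under quantile normalization and with centred arrays it was -0.071 and -0.11, and the median of all genes was negative there too. Of the Tet genes, 2 of 3 were positive, with a median of 0.019 (-0.059 after quantile normalization and -0.047 with centred arrays). Dnmt1, which copies methylation onto new DNA strands, had signals of 669.6, 659 and 773 on the Tg and 701, 728 and 731 on the wt arrays. The wt values lay within the Tg range, with a log2 fold change of -0.042 (-0.32 to 0.23, adjusted p = 0.936). Its further kept probesets gave -0.094 and -0.53. Dnmt3a, the de novo methyltransferase of neurons, had signals of 657, 725 and 802 on the Tg and 686, 606 and 809 on the wt arrays, overlapping, with a log2 fold change of 0.06 (-0.26 to 0.38, adjusted p = 0.918). Dnmt3b, the other de novo enzyme, was dim and stood at -0.11 with an interval of -0.99 to 0.78. Its other kept probeset gave 0.71 (adjusted p = 0.683).

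Tet1 had signals of 166, 175 and 202 on the Tg and 244, 205 and 237 on the wt arrays. All Tg values were below all wt values, the nearest being Tg 3 and wt 2, with a log2 fold change of -0.31 (1.24-fold lower, interval -0.78 to 0.16, adjusted p = 0.671). Its next brightest probeset went the other way, with a log2 fold change of 0.60 (adjusted p = 0.635). That probeset had overlapping signals of 231, 167 and 231 on the Tg and 269, 106 and 75.7 on the wt arrays. The remaining kept probeset was dim and stood at -0.41. A dimmer Tet1 probeset was removed by the filter on low signals and not tested. It read 58.9, 77.5 and 58.5 on the Tg and 12.4, 12.4 and 10 on the wt arrays, higher without overlap. Averaged over its kept probesets, Tet1 had a log2 fold change of -0.040. Tet2 had signals of 479, 528 and 449 on the Tg and 524, 379 and 452 on the wt arrays, with the lowest and nearly the highest value in the wt group and a log2 fold change of 0.11 (-0.25 to 0.47, adjusted p = 0.863). Tet3, with Tg signals from 52.3 to 208 and wt signals from 84.6 to 164, stood at 0.019 with one of the widest intervals (-0.92 to 0.96). None of the 3 Tet intervals lay within a 1.3-fold difference, so these arrays do not bound their change to that size.

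**Figure D2:**
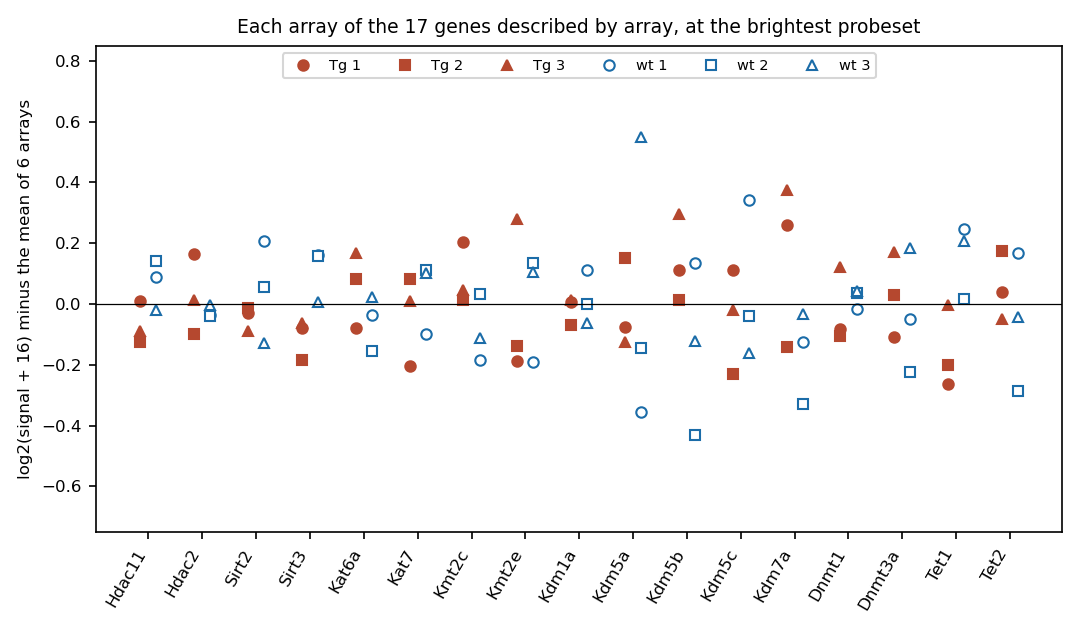
Each array's value, log2(signal + 16) minus the mean of the 6 arrays of that gene (vertical axis), for the 17 genes with array values by the naming rule at their brightest probeset. Filled red symbols are Tg and open blue symbols wt arrays, with the shape giving the replicate number. The groups are apart for Sirt3 and Tet1 and overlap for the other genes, and Kdm5a has a single wt array (wt 3, 797.5) above the rest.

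The probesets of one gene often gave different signs. Of the 57 genes, 30 had several kept probesets, and for 21 of the 30 these went both ways. The widest ranges were those of Kdm5c and Dnmt3a. Over 7 kept probesets Kdm5c ran from -1.13 to 1.32, a range of 2.45, with the extremes at dim probesets whose arrays read 37.6, 7.80 and 66.8 on the Tg and 173, 74.9 and 48.6 on the wt arrays for the lowest and 44.9, 135 and 135 on the Tg and 15.1, 99.0 and 9.10 on the wt arrays for the highest. In both, single arrays read as low as 7.8 and 9.1. The other 4 further probesets of Kdm5c lay between 0.12 and 0.22.

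Dnmt3a ran from -1.01 to 1.28 over 5 kept probesets, a range of 2.29. The probeset with the highest value read 135, 146 and 198 on the Tg and 81.6, 16 and 102 on the wt arrays, where wt 2 was far below all other arrays. The one with the lowest read 76.3, 67.2 and 16.1 on the Tg and 141, 85.7 and 110 on the wt arrays, where Tg 3 was far below. The brighter further probesets of Dnmt3a had log2 fold changes of 0.37 (signals of 662, 496 and 705 on the Tg and 522, 475 and 425 on the wt arrays, limma adjusted p = 0.506) and 0.13. None of the 5 passed the threshold.

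The study's list of altered probesets, chosen on these same arrays and so not independent of them, holds 1 probeset each of Hdac2, Kdm5a and Kdm7a, none of them the brightest. All 3 read higher on the Tg arrays here. The listed Hdac2 probeset had signals of 373, 327 and 391 on the Tg and 299.9, 81.0 and 274 on the wt arrays. Every Tg array was above every wt array and wt 2 was far below the rest, with a log2 fold change of 0.87 (0.07 to 1.67, adjusted p = 0.477), while another Hdac2 probeset of 746, 616 and 581 on the Tg and 525, 662 and 766 on the wt arrays gave 0.00072. For Kdm7a the listed probeset had signals of 329, 273 and 415 on the Tg and 216, 155 and 264 on the wt arrays, without overlap, and a log2 fold change of 0.65 (0.13 to 1.17, adjusted p = 0.407). The next brightest Kdm7a probeset gave 0.12 (1227, 1325 and 1160.5 on the Tg and 1126, 1064 and 1214 on the wt arrays), so the 3 kept probesets of Kdm7a shared their sign and differed in size. For Kdm5a the listed probeset had signals of 130.4, 119.8 and 187 on the Tg and 109, 61.7 and 101.1 on the wt arrays and a log2 fold change of 0.61 (-0.10 to 1.32, adjusted p = 0.582), and its other further probesets gave 0.31, 0.54 and -0.064.

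Further probesets were positive more often than the brightest one, for these enzymes as for all genes. In the 30 enzyme genes with several kept probesets, 12 of 30 brightest probesets (40%, median signal 763) and 40 of 62 further probesets (64.5%, median signal 263) were positive, with median log2 fold changes of -0.032 and 0.12. Over all genes the shares were 43.3% of 6780 and 59.6% of 11990. At an unadjusted p under 0.05 there were 4 of the 62 further probesets, all higher (2 of Dnmt3a and the listed ones of Hdac2 and Kdm7a). Over all genes 10.6% of the further probesets passed that level (927 higher and 341 lower), so the 4 of 62 (6.45%) were not above the background. limma called 0 of them at an adjusted p under 0.05, and no gene's direction was read from a further probeset alone.

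**Figure D3:**
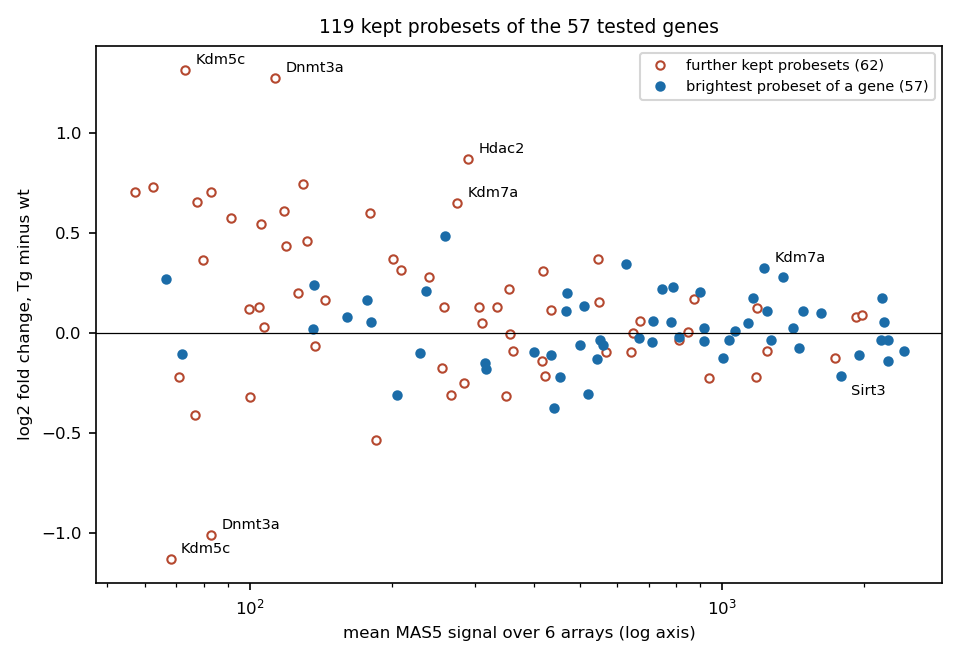
Log2 fold change (Tg minus wt, vertical axis) against mean MAS5 signal over the 6 arrays (horizontal log axis) for the 119 kept probesets of the 57 tested genes. Filled points are the brightest probeset of each gene and open points the 62 further ones. Differences beyond 0.5 either way occur only at probesets other than the brightest, and the extremes of Kdm5c and Dnmt3a are at dim probesets.

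The enzymes were not at the same level on the arrays of a group. Averaged over the 57 genes and relative to the mean of all 6 arrays, the log2 level was -0.083, 0.039 and 0.078 on Tg 1, Tg 2 and Tg 3 and 0.027, -0.036 and -0.025 on the wt arrays, so the Tg arrays spanned the whole wt range. Tg 1 was the lowest array for 15 of the 57 genes (26.3%, against 18.9% of all genes) and wt 2 for 14 (24.6% against 13.4%). Tg 3 was the highest for 16 (28.1% against 15.01%) and the lowest for 3 (5.26% against 20.5%). The median SD within a group was 0.14 in Tg and 0.17 in wt mice on the log2 scale, against 0.17 and 0.18 over all genes. By family, the spread was widest for the Tet genes, with Tg 1 at -0.42 and Tg 2 at 0.21. The demethylases had wt 2 at -0.13 and Tg 3 at 0.14.

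**Figure D4:**
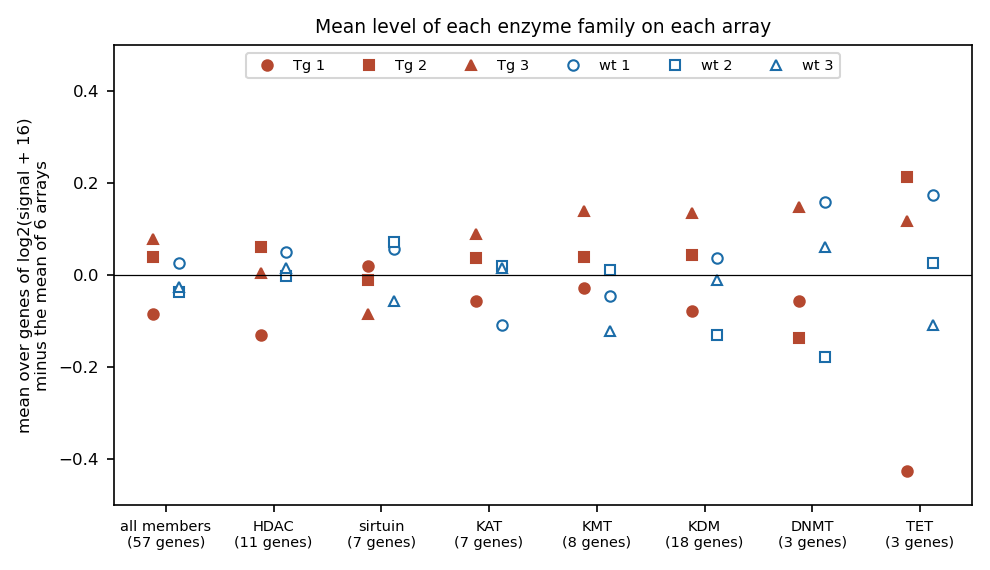
Mean over genes of log2(signal + 16) minus the mean of the 6 arrays (vertical axis) for all tested members and for each enzyme family, with 1 symbol per array. Filled red symbols are Tg and open blue symbols wt arrays, with the shape giving the replicate number. In each family the Tg and wt symbols overlap, and Tg 1 lies lowest for the Tet genes (-0.42). These levels are as deposited. With centred arrays the median difference of the Kat, Kdm and Tet genes changes sign, and after quantile normalization that of the Tet genes.

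Markers of cell types and of neighbouring tissue also varied between the arrays. Of 12 markers of dentate gyrus granule cells 11 were measured, all with a positive log2 fold change, and their summed signal was 17788 to 19409 on the Tg and 13926 to 17871 on the wt arrays. All 7 measured markers of the subiculum and retrohippocampal cortex were negative, with sums of 5348 to 5818 on the Tg and 7131 to 8088 on the wt arrays. The 8 choroid plexus markers ranged most, with sums of 4786 to 69340 on the Tg and 48878 to 55488 on the wt arrays, lowest on Tg 3 and highest on Tg 2. Oligodendrocyte markers, with 2 of 9 measured ones positive and sums of 63393 to 79249 on the Tg and 66387 to 79724 on the wt arrays, were also lowest on Tg 3, the array that was highest for the largest number of enzymes. Sirt2 read 2273 there, the lowest of its Tg values, but its lowest array of all was wt 3, at 2213. Of 8 GABAergic interneuron markers 1 was positive, with sums of 26839.8 to 27796 on the Tg and 28629 to 32466 on the wt arrays. In the remaining lists, 7 of 10 measured markers of CA pyramidal cells were positive and 2 of 6 of the striatum. For astrocytes 1 of 8 was positive, for microglia 4 of 9, for endothelial and mural cells 1 of 7 and for all neurons 2 of 7. The part of these tissue differences in the values of the enzymes was not tested.

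Other proteins of the same chromatin pathways were taken from lists of their own. limma called 0 genes in any of them, and so did Cyber-T. In the lists of acetyltransferases outside the Kat symbols (10 tested, 4 positive, median log2 fold change -0.036), arginine methyltransferases (8 tested, 4 positive, 0.0074), partners of the Kmt2 and polycomb complexes (14 tested, 9 positive, 0.0082) and readers of acetyl lysine (13 tested, 6 positive, -0.017), 0 genes had an unadjusted p under 0.05. The brightest genes there were Ncoa1 (0.0019) and the CREB-binding protein gene Crebbp (0.17), Prmt2 (-0.041) and Prmt8 (0.059), Hcfc1 (-0.16) and Mtf2 (-0.047), and Brd2 (-0.13) and Bptf (-0.058).

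Of 27 further lysine methyltransferases 20 were tested, 9 of them positive (median -0.019), and at an unadjusted p under 0.05 there were 2 higher and 1 lower, where 2.9% of all genes were higher and 4.97% lower. Setd1b, which methylates lysine 4 of histone H3, had signals of 746, 751 and 673 on the Tg and 355, 690.1 and 469 on the wt arrays, at a log2 fold change of 0.55 (adjusted p = 0.409). Smyd3 had 0.68 (adjusted p = 0.471) and Smyd2 -0.24 (adjusted p = 0.485). Of 10 tested demethylases and hydroxylases outside the Kdm symbols, 2 were positive (median -0.070), and Phf2, a relative of Kdm7a, was lower at an unadjusted p under 0.05, with signals of 706, 698 and 748 on the Tg and 878, 781 and 974 on the wt arrays and a log2 fold change of -0.28 (adjusted p = 0.513). Kdm7a and Phf2 had opposite signs.

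Among the subunits of the corepressor complexes that hold class I deacetylases, 13 of 22 were positive (median 0.069), and the nucleosome remodeller Chd4 was higher at an unadjusted p under 0.05, with 890.2 ± 77.2 for Tg and 722 ± 49.5 for wt (SD, n = 3) and a log2 fold change of 0.29 (adjusted p = 0.482). Of the readers of methylated DNA and the partners of its removal, 6 of 12 were positive (median -0.024). Zbtb4, which binds methylated CpG, was at 1245 ± 91.7 for Tg and 1538 ± 173 for wt (SD, n = 3; log2 fold change -0.30, adjusted p = 0.440). Gadd45b, a gene induced by neuronal activity and linked to DNA demethylation, had signals of 611, 629 and 630.1 on the Tg and 336, 486 and 592 on the wt arrays, at 0.43 (adjusted p = 0.496), with its lowest value on wt 1. No gene of these lists passed the threshold after adjustment.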

How the data were processed

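Total hippocampal RNA of 3 Tg and 3 wt mice was labelled and hybridised to 1 array per mouse. The deposited values are probeset intensities on a linear scale, which the authors computed with MAS5, per the labels; its version is not given in the sources used here. Detection calls and scanned images were not used here, and the study's own lists came from other values. From the 45101 probesets, 64 controls and then the 31% dimmest by mean log2 level were removed. The 31076 that remained had mean signals of 48.8 or more. Of all probesets, 34945 are annotated to 1 gene by the platform annotation. A gene was represented by its brightest probeset by mean signal. Signals were taken as log2(signal + 16) and tested with limma 3.58.1 (R 4.3.3), fitting group means and shrinking variances toward an intensity trend, with Benjamini-Hochberg adjustment over all kept probesets and calls at an adjusted p under 0.05. Every adjusted p in the text is limma's. For Cyber-T the window was 101 probesets and the confidence 10. The scripts were tested on simulated data, and figures were drawn with matplotlib 3.10.9. Precision is limited by the number of arrays.

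The genes and lists were chosen with earlier results of these data known, so they get counts and no test as sets. Values on every array were given by rule for members with an unadjusted p under 0.05, the 2 brightest members of each family, members with a probeset in the study's list and the 2 genes whose probesets differ most. Kdm6a, Kdm6b, Kdm4c, Sirt4, Sirt5, Sirt7, Kmt5c, Tet3 and Dnmt3l were added after their values were seen. In the other lists, genes with an unadjusted p under 0.05 or else the 2 brightest were named. Arrays of one replicate number did not deviate together (correlations of -0.0159, 0.00780 and 0.0333 between Tg and wt), so the numbers do not pair them. Alternatives changed the added constant (1 or 64), the scaling (quantile, or array medians set equal), the filter (none, or only the brightest 50%) and the test (limma with no trend, limma using array weights, Cyber-T). They also took the replicate number as a block or the mean of a gene's probesets, left out each array in turn, and left out both wt 1 and wt 2.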

Additional observations from a re-analysis of the deposited data

How the results depend on the processing

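limma or Cyber-T called 0 member genes under every alternative in which calls were counted. The lowest adjusted p of any of the 17 genes was 0.284. Over all probesets, Cyber-T called 65 and limma 6 without Tg 2. It called 1 each with the replicate number as a block, without wt 1 and without wt 3. In the other alternatives with calls counted there were 0. Calls were thus rare throughout, and 0 among the members does not set them apart. With the replicate number as a replicate block 0 members were called and their median log2 fold change was 0.0098, and the block changed no call of a member. The median of the members was 0.0098 as reported, -0.0565 when array medians were set equal, and from -0.0319 to 0.0690 when an array was left out. At a 1.3-fold difference and an unadjusted p under 0.05, 0 members passed as reported. After quantile normalization, centring, the block or averaging of probesets, and without Tg 2, 1 passed in each case. Without Tg 1, wt 1 or wt 2 there were 2, and without wt 3 there were 3. No share of all genes stands beside these counts, so they are not read as a result about the members. Several log2 fold changes reversed sign, among them that of Kdm5b, which was 0.28 as reported. With centred arrays, Dnmt3a was -0.0062 and Hdac2 -0.013. With the mean of all probesets, Kdm5a was 0.27, Kdm5b -0.018, Kdm5c 0.10, Kmt2e 0.11 and Tet2 -0.052. Leaving out an array moved Hdac2 from -0.016 to 0.12, Kat7 from -0.14 to 0.0093, Kmt2e from -0.18 to 0.053, Dnmt3a from -0.037 to 0.17, Kdm5a from -0.22 to 0.23, Kdm1a from -0.072 to 0.016, Kdm5c from -0.20 to 0.053 and Tet2 from -0.0079 to 0.22. The cause was not tested. Tet1 was -0.040 with the mean of its probesets, and leaving out 1 array at a time gave -0.17 to -0.0071 for Sirt2 and 0.13 to 0.42 for Kdm5b. Kdm7a stayed positive (0.22 to 0.48) and Sirt3 negative (-0.27 to -0.18) without each array in turn. With both wt 1 and wt 2 left out, a value without a test, 32 of 57 members were positive. Dim probesets, with wide intervals, limit what could be seen for Tet3, Dnmt3b, Kdm4d and Kdm8.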
